A study of Mus musculus with 10 samples.

Results

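The genes of the Snrpn imprinted domain on mouse chromosome 7 were followed in female ESCs, pESCs, the PGC-like cells induced from each of them (ESC-PGCLCs and pESC-PGCLCs) and PGCs. The members were picked by symbol and are Snrpn, Snurf, Ndn, Magel2, Mkrn3, Peg12 and Ube3a, which are 7 of the 36066 genes of the table. Each of the 5 groups had 2 libraries of bulk RNA, all labelled strain C57BL6. pESCs are ES cells of a parthenogenetic line, so that each chromosome comes from an oocyte. The PGC-like cells had been induced through epiblast-like cells and then kept for 4 days with BMP4 at 500 ng/ml beside SCF, EGF and LIF, and by the methods of the study they were sorted on the surface proteins SSEA1 and CD61. An embryonic day is not among the labels of the PGCs, and no label says whether the libraries of a group came from separate cultures, lines or litters, so p-values measure the spread between these libraries, which may be technical. The domain was selected on values of Snrpn and Snurf in pESCs and ESCs, so every value of the 7 genes in those stem cells, and every fold change that uses them, is given as a description without a test. Tests of the 7 genes were run only among ESC-PGCLCs, pESC-PGCLCs and PGCs.

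The domain is a classical imprinted region, and its human counterpart is affected in Prader-Willi and Angelman syndromes. Snrpn, Snurf, Ndn, Magel2, Mkrn3 and Peg12 are transcribed from the paternal chromosome, and an imprinting centre at the Snrpn promoter carries DNA methylation on the maternal chromosome alone. Ube3a is transcribed from both chromosomes in most cells and from the maternal one in neurons, where the long RNA Snhg14, which starts upstream of Snrpn on the paternal chromosome, runs through it on the other strand. Germ cells erase such imprints before they set those of their own sex.

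Members were placed on GRCm38 (mm10). Ube3a lay on the plus strand at 59228750 to 59311536, Snrpn on the minus strand at 59982495 to 60140219, and Snurf inside Snrpn at 59995449 to 60005049. The other 4 genes have a single exon and lay about 2 Mb further on, Ndn at 62346569 to 62350262 and Magel2 at 62377010 to 62381640 on the plus strand, and Mkrn3 at 62417593 to 62420139 and Peg12 at 62461871 to 62464510 on the minus strand. RefSeq promoter windows of 300 bases, 250 before and 50 after a start, were found for all 7 members and gave 9 different windows, 4 of them for Snrpn, of which the one nearest to Snurf is shared with it. The 8 letters CGCATGCG, which read the same on both strands and form the core of sites that the factor NRF1 binds, occurred in all 4 Snrpn windows and in that of Ndn, and in none of the windows of Ube3a, Magel2, Mkrn3 and Peg12. Of all 32817 promoter windows of that length, 1.86% held these letters. They were searched after the windows had been read, and a match is a description of the letters only. The windows of the shared Snrpn and Snurf start, of a start further upstream of Snrpn and of Ndn are printed 5′ to 3′ with CGCATGCG in capitals, since they are starts that hold these letters. The window of Ndn, at 62348027 to 62348326, lies inside the Ndn gene model placed above. Its RefSeq start is thus not the start of the model on which the level of Ndn rests. The window of Ube3a shows the base composition at the start of the gene that is not silenced on the maternal chromosome.
Snrpn and Snurf, chr7:60005150-60005449, minus strand: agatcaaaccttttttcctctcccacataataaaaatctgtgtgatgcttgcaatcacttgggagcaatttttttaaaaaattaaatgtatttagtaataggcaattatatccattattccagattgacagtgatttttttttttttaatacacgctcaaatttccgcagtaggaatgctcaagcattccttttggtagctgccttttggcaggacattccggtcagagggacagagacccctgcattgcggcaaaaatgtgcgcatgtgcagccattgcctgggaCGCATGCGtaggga
Snrpn upstream start, chr7:60140176-60140475, minus strand: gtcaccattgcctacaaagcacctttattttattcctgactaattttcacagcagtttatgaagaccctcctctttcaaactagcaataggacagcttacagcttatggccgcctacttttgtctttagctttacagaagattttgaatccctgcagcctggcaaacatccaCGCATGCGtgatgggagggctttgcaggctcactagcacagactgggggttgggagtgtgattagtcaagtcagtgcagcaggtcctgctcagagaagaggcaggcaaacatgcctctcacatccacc
Ndn, chr7:62348027-62348326, plus strand: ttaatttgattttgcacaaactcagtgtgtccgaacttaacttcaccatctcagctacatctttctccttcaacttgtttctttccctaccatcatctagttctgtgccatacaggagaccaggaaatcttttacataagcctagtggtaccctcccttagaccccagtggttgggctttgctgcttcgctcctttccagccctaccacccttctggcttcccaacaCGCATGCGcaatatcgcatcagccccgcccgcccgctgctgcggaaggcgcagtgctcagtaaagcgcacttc
Ube3a, chr7:59228500-59228799, plus strand: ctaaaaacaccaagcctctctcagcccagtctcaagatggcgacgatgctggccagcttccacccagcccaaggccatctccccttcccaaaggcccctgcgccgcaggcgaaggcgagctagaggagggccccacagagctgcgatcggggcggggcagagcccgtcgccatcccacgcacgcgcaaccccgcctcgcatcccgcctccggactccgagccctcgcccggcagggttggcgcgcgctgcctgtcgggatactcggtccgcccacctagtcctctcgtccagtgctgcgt

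The 3 upstream Snrpn windows were 80.1% to 81.4% identical to one another when aligned end to end, and 50.3% to 52.1% identical to the window shared with Snurf. That shared window held 7 CpG pairs, the median of all windows, the upstream windows held 2 to 4, Ndn 11 and Ube3a 29. The letters TGCCGC or their reverse complement GCGGCA, which ZFP57 recognises when methylated, occurred in the shared window alone of the 9, and in 11.6% of all windows. Snurf, which encodes a small protein from the first part of the bicistronic Snurf-Snrpn RNA, is annotated by its reading frame alone, 216 nt in 3 exons. The whole of it occurs letter for letter in the 1932 nt transcript of Snrpn from base 63 on, so the levels of Snurf and Snrpn are not independent measurements. It is printed with its middle exon in capitals.
Snurf, chr7:59995449-60005049, minus strand: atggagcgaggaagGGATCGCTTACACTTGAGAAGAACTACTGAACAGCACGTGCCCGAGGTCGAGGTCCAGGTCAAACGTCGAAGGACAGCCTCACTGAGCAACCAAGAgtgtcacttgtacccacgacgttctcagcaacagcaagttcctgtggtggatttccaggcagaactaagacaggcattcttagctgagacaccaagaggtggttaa

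Depth, recovered as whole reads from TPM and exon length, ran from 6779842 reads (ESC-PGCLC replicate 2) to 18572914 (ESC replicate 2), and both ESC-PGCLC libraries lay below the other 8. Germ cell markers (9 genes, all measured) summed to 5457 to 7900 TPM in the PGCLC and PGC libraries and to 407 to 931 TPM in the stem cells, and all 8 pluripotency markers were above 1 TPM in each stem cell library. Dppa3 was the largest part of the germ cell sums, with 3165 to 5681 TPM in the PGCLC and PGC libraries. Dazl was at 1663.5 and 1821 TPM in ESC-PGCLCs, 1084 and 1115 TPM in pESC-PGCLCs and 1958 and 2095 TPM in PGCs. Ddx4 was at 260 and 281 TPM, 186 and 191 TPM, and 189 and 303 TPM in these groups. Pou5f1, the gene of OCT4 and active in PGCs, was at 0 in ESC-PGCLC replicate 2 and at 0.374 TPM in replicate 1, against 2.98 and 2.88 TPM in pESC-PGCLCs and 3.14 and 1.63 TPM in PGCs. Genes listed as markers of other cells moved with the groups. The 8 blood genes summed to at most 4.44 TPM in stem cells, 487 to 556 TPM in ESC-PGCLCs, 2870 to 3398 TPM in pESC-PGCLCs and 1961 to 2147 TPM in PGCs. The 12 gonadal somatic genes summed to 7.72 to 10.4, 33.2 to 38.2, 61.6 to 70.3 and 118 to 141 TPM in the same order, and the 12 fibroblast genes to 0.848 to 1.26, 5.37 to 5.42, 10.03 to 13.001 and 13.8 to 14.9 TPM. The 8 neuronal genes summed to 100 to 133 TPM in stem cells and 3.42 to 4.98 TPM in the other groups, 2 or 3 of them reached 1 TPM in any library, and Snap25, Dcx or both were at 0 in 9 of the 10 libraries. Most of the stem cell sum was Stmn2, at 93.3 to 119 TPM. Map2 went the other way, with 0.104 to 0.235 TPM in stem cells and 1.01 to 1.94 TPM in the other groups. Whether these transcripts came from other cells or from the labelled cells was not tested, nor was the part of other cells in the levels of the domain.

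Snrpn encodes SmN, a form of the SmB protein of spliceosomal snRNPs. It stood at 107.9 and 88.4 TPM in ESCs and at 6.80 and 9.46 TPM in pESCs. In ESC-PGCLCs it was at 14.1 and 10.9 TPM, in pESC-PGCLCs at 94.7 and 104.8 TPM, and in PGCs at 24.3 and 31.0 TPM. Levels thus crossed between the stem cells and the cells made from them: ESCs and pESC-PGCLCs were high, with overlapping values, and pESCs and ESC-PGCLCs were low. By group means, Snrpn was 12.1-fold lower in pESCs than in ESCs, 7.84-fold lower in ESC-PGCLCs than in ESCs, and 12.3-fold higher in pESC-PGCLCs than in pESCs. In the order pESC-PGCLC, ESC, PGC, ESC-PGCLC, pESC, the libraries of the first pair overlapped and those of each later pair of neighbours did not. In bulk RNA, fewer cells that express a gene and less RNA per cell cannot be told apart.

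Snurf followed the same order apart from the lead of ESCs. Its TPM were 223 and 194 in ESCs, 12.1 and 21.9 in pESCs, 34.1 and 18.2 in ESC-PGCLCs, 198 and 203 in pESC-PGCLCs and 16.0 and 52.3 in PGCs. The 2 high groups overlapped each other, and so did neighbours among PGCs, ESC-PGCLCs and pESCs, where the level rested on 16 to 102 reads a library. The pair shared reads in a steady proportion: Snurf had 16.7% to 24.1% as many reads as Snrpn in the 8 cultured libraries and 16.9% in PGC replicate 2. PGC replicate 1 stood apart at 6.59% (22 of 334 reads; exact 95% interval 4.17% to 9.80%, counting error only). With the Snurf reads subtracted from those of Snrpn, and the length shortened by as much, the rest of Snrpn was 8.04-fold higher in pESC-PGCLCs than in ESC-PGCLCs and 12.4-fold higher than in pESCs, and 7.80-fold higher in ESCs than in ESC-PGCLCs. Of the exons of Snrpn 589 nt, or 27.3%, Snurf included, are also exons of the longer gene model Gm38393, which stood at 36.5 and 29.4 TPM in ESCs, 2.60 and 3.18 in pESCs, 8.30 and 7.91 in ESC-PGCLCs, 33.5 and 36.5 in pESC-PGCLCs and 12.8 and 13.5 in PGCs. Reads of these 3 gene models cannot be told apart where their exons coincide.

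**Figure D1:**
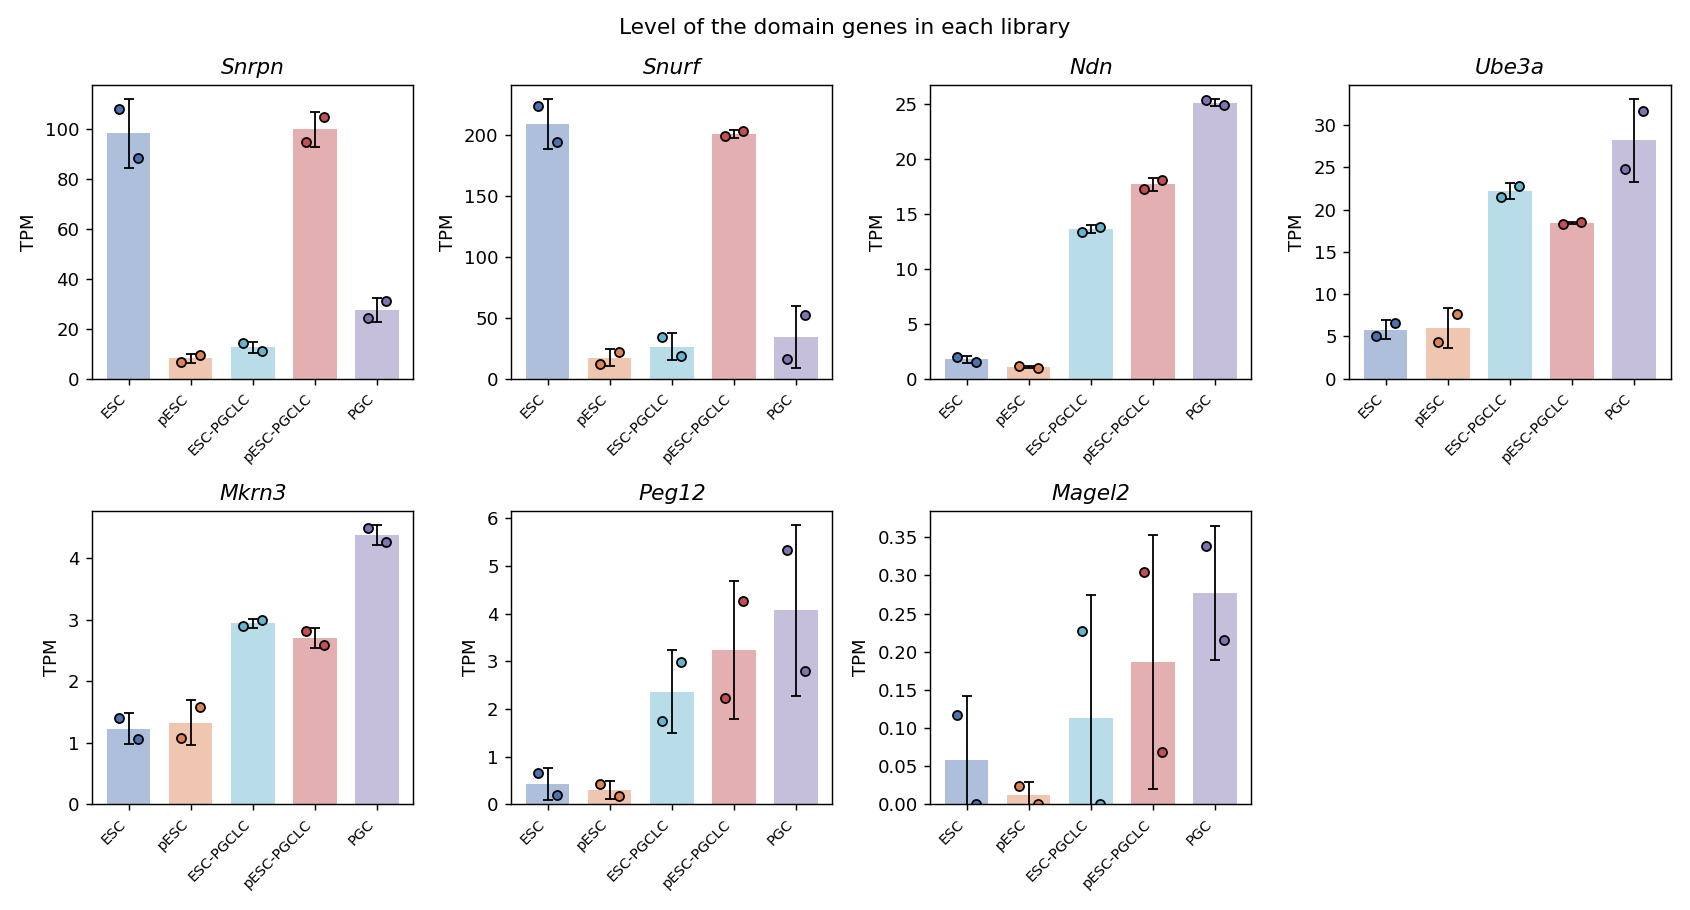
Level in TPM of each of the 7 domain genes by group; bars are means of 2 libraries, points the libraries and error bars the SD, clipped at 0. Snrpn and Snurf are high in ESCs and pESC-PGCLCs and low in pESCs and ESC-PGCLCs, while Ndn, Ube3a, Mkrn3 and Peg12 are low in both kinds of stem cells and highest in PGCs by mean.

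**Figure D2:**
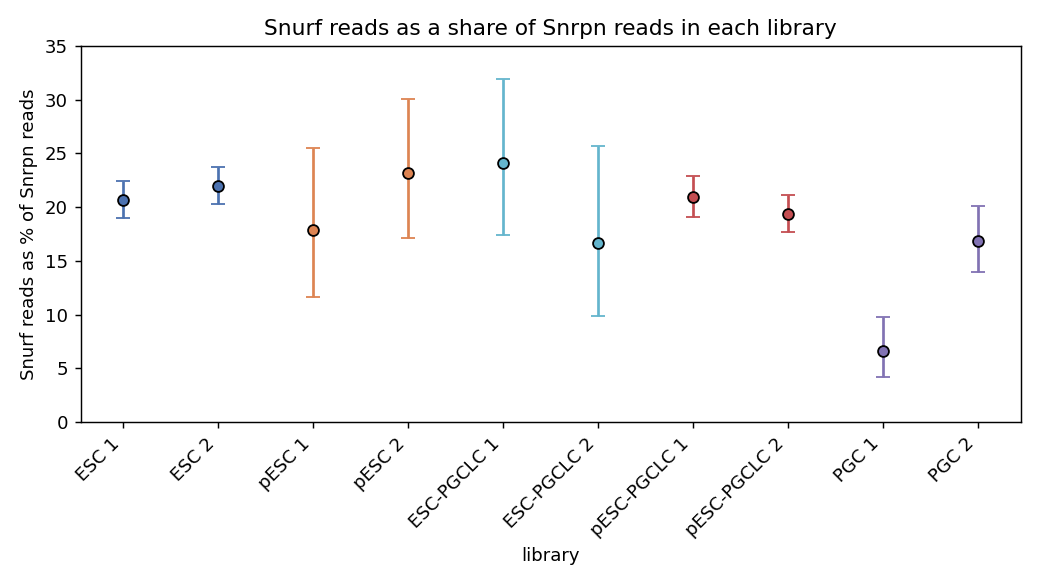
Reads of Snurf as a percent of the reads of Snrpn in each of the 10 libraries, with exact 95% binomial intervals. PGC replicate 1, at 6.59%, lies below the other 9 libraries, which run from 16.7% to 24.1%.

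Between the PGC-like cells of both origins, Snrpn and Snurf were the 2 of the 7 genes that passed the test, and both were higher in pESC-PGCLCs. Snrpn was higher by 2.91 ± 0.21 (SE) on the log2(TPM + 1) scale (adjusted p = 0.000165, limma with Benjamini-Hochberg adjustment over 27259 genes, n = 2 against 2) and Snurf by 2.96 ± 0.53 (adjusted p = 0.00573). In linear TPM these are 7.97-fold and 7.67-fold. A gene was called when its adjusted p lay under 0.05 and it differed 2-fold or more. In this comparison 13.4% of all genes were called, so the count of 2 of 7, for gene models that overlap each other, is read against about 1 gene in 7. Ndn (0.36 ± 0.15, adjusted p = 0.126), Peg12 (0.32 ± 0.36), Magel2 (0.09 ± 0.14), Mkrn3 (-0.09 ± 0.18) and Ube3a (-0.25 ± 0.25) were not called. The median of all genes was 0.12, and -0.29 after each library was centred on widely expressed genes, under which Snrpn still differed by 2.50 and Snurf by 2.55. Fold changes in this comparison also moved with base composition across 14729 genes (Spearman's rho with GC 0.33, across genes, which are not independent replicates), with medians of 0.05, 0.32 and 0.61 in the low, middle and high GC bins. Snrpn, at 45.5% GC, lies in the low bin, and Snurf, at 51.9%, in the high bin. From ESCs to ESC-PGCLCs fold changes moved with GC in the opposite sense (rho -0.25).

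Against PGCs the 2 kinds of PGC-like cells differed in opposite directions. Snrpn was higher in PGCs than in ESC-PGCLCs by 1.08 ± 0.21 (limma adjusted p = 0.0084), the 1 call among the 7 genes where 13.8% of all genes were called. That call was lost with the libraries centred on widely expressed genes (0.48, adjusted p = 0.0822) or quantile normalized (0.58, adjusted p = 0.115), without ESC-PGCLC replicate 2 (0.91, adjusted p = 0.0527) and, for falling short of 2-fold, without PGC replicate 2 (0.91, adjusted p = 0.0343). Ndn was higher in PGCs by 0.84 ± 0.15 (adjusted p = 0.00554), under the 2-fold minimum, and by 0.24 (adjusted p = 0.258) after centring. The other values were 0.21 ± 0.53 for Snurf, 0.45 ± 0.18 for Mkrn3, 0.57 ± 0.36 for Peg12, 0.32 ± 0.25 for Ube3a and 0.20 ± 0.14 for Magel2, beside a median of 0.27 over all genes that moved to -0.34 with centring.

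Against pESC-PGCLCs, PGCs had less Snrpn by -1.82 ± 0.21 (limma adjusted p = 0.0113) and less Snurf by -2.75 ± 0.53 (adjusted p = 0.0297), 2 calls of 7 where 3.67% of all genes were called. As Snurf lies within Snrpn and shares its reads, these 2 calls are not independent. By means, Snrpn was 3.61-fold and Snurf 5.88-fold higher in pESC-PGCLCs. Both calls were lost when only those 2 groups were fitted (adjusted p = 0.07 for Snrpn and 0.0802 for Snurf) and without pESC-PGCLC replicate 1 (0.0654 and 0.125), pESC-PGCLC replicate 2 (0.101 and 0.149) or PGC replicate 1 (0.0564 and 0.088), although the directions were the same. Snurf rests here on PGC replicate 1 more than Snrpn does, with -1.92 without it. Ndn (0.48 ± 0.15), Mkrn3 (0.54 ± 0.18), Ube3a (0.58 ± 0.25), Peg12 (0.25 ± 0.36) and Magel2 (0.11 ± 0.14) were not called. The 2 comparisons with PGCs share those libraries.

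**Figure D3:**
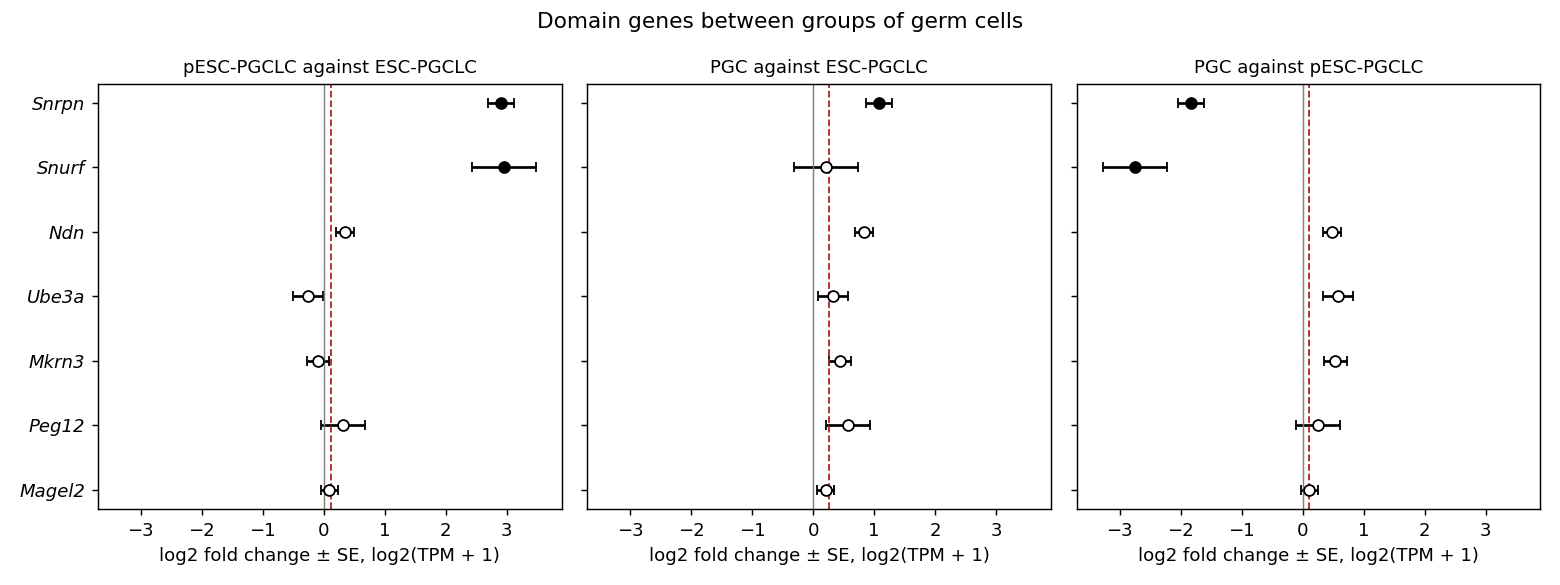
Difference of the 7 genes between groups of germ cells on the log2(TPM + 1) scale with its SE; filled points passed the test, open points did not, and the dashed line is the median of all genes. Snrpn is called in all 3 comparisons, with 2.91, 1.08 and -1.82, and Snurf in the 2 that hold pESC-PGCLCs.

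The single-exon genes Ndn, Mkrn3 and Peg12 followed another order, low in stem cells and with the highest mean in PGCs. Ndn, the gene of necdin, a MAGE family protein that restrains growth in differentiating neurons, was at 2.00 and 1.503 TPM in ESCs and at 1.11 and 0.968 TPM in pESCs. It was at 13.3 and 13.8 TPM in ESC-PGCLCs, 17.2 and 18.1 TPM in pESC-PGCLCs and 25.3 and 24.9 TPM in PGCs. No 2 groups overlapped. By means, Ndn was 7.76-fold higher in ESC-PGCLCs than in ESCs and 17.0-fold higher in pESC-PGCLCs than in pESCs, so its level was higher after both inductions, while that of Snrpn differed in opposite directions. The order of the groups of germ cells in Ndn is also that of the gonadal somatic and the fibroblast markers, whose part was not tested.

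Mkrn3, which encodes a zinc finger protein with ubiquitin ligase activity that holds back puberty, was at 1.41 and 1.06 TPM in ESCs, 1.07 and 1.59 in pESCs, 2.89 and 2.99 in ESC-PGCLCs, 2.81 and 2.59 in pESC-PGCLCs and 4.49 and 4.26 in PGCs. Its stem cell groups overlapped and lay below all germ cell libraries. Peg12, a gene of the FRAT family that binds GSK3, was at 0.658 and 0.191 TPM in ESCs, 0.431 and 0.175 in pESCs, 1.75 and 2.98 in ESC-PGCLCs, 2.22 and 4.27 in pESC-PGCLCs and 5.34 and 2.81 in PGCs. The 3 germ cell groups overlapped one another in Peg12, and all lay above the stem cells. Magel2, which encodes a partner of TRIM27 and of the WASH complex on endosomes, had 0 to 12 reads in a library and at most 0.339 TPM, with 0 reads in replicate 2 of ESCs, of pESCs and of ESC-PGCLCs. Every pair of neighbouring groups overlapped in Magel2, and it was called in none of the 3 tested comparisons. Its PGC libraries lay above those of ESCs and pESCs, and those of pESC-PGCLCs above those of pESCs, on 1 to 19 reads a group.

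Ube3a encodes the ubiquitin ligase E6AP. It was at 5.01 and 6.62 TPM in ESCs and at 4.32 and 7.71 TPM in pESCs, which overlapped. It was at 21.5 and 22.8 TPM in ESC-PGCLCs, 18.3 and 18.5 TPM in pESC-PGCLCs and 24.7 and 31.6 TPM in PGCs. By means it was 3.81-fold higher in ESC-PGCLCs than in ESCs and 3.06-fold higher in pESC-PGCLCs than in pESCs. Exons of genes on the other strand, Snhg14 among them, cover 27.3% of the 20626 nt of Ube3a exons, and no source used here says that counting kept the strand. Gm44560, one of those opposite-strand models, had 30.8% to 43.3% as many reads as Ube3a in every library.

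The gene model of Snhg14, the host RNA of the snoRNAs downstream of Snrpn, lay on the minus strand at 59307924 to 59975759. It begins past the end of Snrpn, so the start of the RNA upstream of Snrpn is not part of the level given here. The level of Snhg14 did not follow that of Snrpn. It was at 2.85 and 2.73 TPM in ESCs, 0.611 and 0.911 in pESCs, 13.9 and 14.9 in ESC-PGCLCs, 7.26 and 8.04 in pESC-PGCLCs and 11.5 and 10.8 in PGCs. It was lower in pESCs than in ESCs by -1.11 ± 0.15 (limma adjusted p = 0.0295), a comparison with 0.781% of all genes called, and it rose in both inductions, by 2.02 ± 0.15 from ESCs (adjusted p = 2.89e-05) and by 2.30 ± 0.15 from pESCs (adjusted p = 2.54e-05), where 29.8% and 27.6% of all genes were called. The difference between both rises was 0.28 ± 0.22 (limma interaction, adjusted p = 0.42). It was fitted without quantile normalization or centring. Centring lowers changes from pESCs more than those from ESCs, so the difference depends on the scaling. In pESC-PGCLCs, where Snrpn was higher, Snhg14 was lower than in ESC-PGCLCs by -0.83 ± 0.15 (adjusted p = 0.00669), under the 2-fold minimum, and it was called there with quantile normalization (-1.22) and with centring (-1.24). Its call in pESCs fell under the 2-fold minimum with centring (-0.78, adjusted p = 0.0395), and it was lost when only ESCs and pESCs were fitted. As Snhg14 lies in the domain selected on stem cell values of Snrpn and Snurf, its tests against stem cells are not free of that selection. Snhg14 has 31.0% GC and 26093 nt of exons, at the extreme of both among the genes compared. Of these exons 1803 nt, or 6.91%, coincide with exons of Ube3a on the other strand. As strand handling is not given, reads of Ube3a may be among those of Snhg14, and their part was not tested.

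Of 16 transcripts of the domain listed as neighbours, 8 were in the table and 6 passed the filter on low values. Counts of this and the later lists are read against the share of all genes called. It was 13.4% between the PGC-like cells, 13.8% in PGCs against ESC-PGCLCs and 3.67% against pESC-PGCLCs. It was 0.781% in pESCs against ESCs, 29.8% from ESCs to ESC-PGCLCs and 27.6% from pESCs to pESC-PGCLCs. Between pESC-PGCLCs and ESC-PGCLCs, Gm38393 was higher (1.98 ± 0.16, limma adjusted p = 0.000203) and the small nucleolar RNA Snord64, which standard libraries capture poorly, was lower (-2.45 ± 0.56, adjusted p = 0.0169), and the median of the 6 was -0.03. In PGCs, Snord64 was lower than in ESC-PGCLCs (-2.56 ± 0.56, adjusted p = 0.0127) and Gm38393 lower than in pESC-PGCLCs (-1.35 ± 0.16, adjusted p = 0.0113). Snord64 was higher in ESC-PGCLCs than in ESCs (2.47 ± 0.56, adjusted p = 0.00792) and in pESC-PGCLCs than in pESCs (1.86, adjusted p = 0.0282), and the second of these calls was lost with quantile normalization (1.51, adjusted p = 0.0969) and with centring (1.13, adjusted p = 0.0888). The small nucleolar RNA Snord107 was called higher in pESC-PGCLCs, at 10.1 and 7.59 TPM, than in pESCs, where it was listed at 0 in both libraries (adjusted p = 0.0017). Snord64 and Snord107 are short, so such TPM stand for few reads a library, and their calls lie near the floor of detection. Like those of Snhg14, their tests against stem cells are not free of the selection on stem cell values. The 10 genes that flank the cluster, such as the phospholipid flippase gene Atp10a and Herc2, an interactor of UBE3A, had no call between the 2 kinds of PGC-like cells or between PGCs and ESC-PGCLCs, and 1 between PGCs and pESC-PGCLCs (Atp10a, 1.22 ± 0.22, adjusted p = 0.0257). The call of Atp10a was lost with quantile normalization (0.96, adjusted p = 0.0322). With each induction 4 of the 10 were called higher and none lower, beside 29.8% of all genes called in either direction from ESCs and 27.6% from pESCs. Of the 27259 genes, 4161 were called higher and 3961 lower from ESCs, and 5681 higher and 1854 lower from pESCs. The list was led by Atp10a (2.56), Tubgcp5 (2.37) and Nipa1 (1.86) from ESCs, and by Nipa1 (2.34), Tubgcp5 (2.00) and Atp10a (2.00) from pESCs. The medians of the list were 0.62 and 0.75 beside 0.05 and 0.22 over all genes, and with centring they were 0.64 and 0.02 beside 0.06 and -0.51. The call of Herc2 from pESCs was lost with quantile normalization (0.99) and with centring (0.87), which left 3 of the 10.

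**Figure D4:**
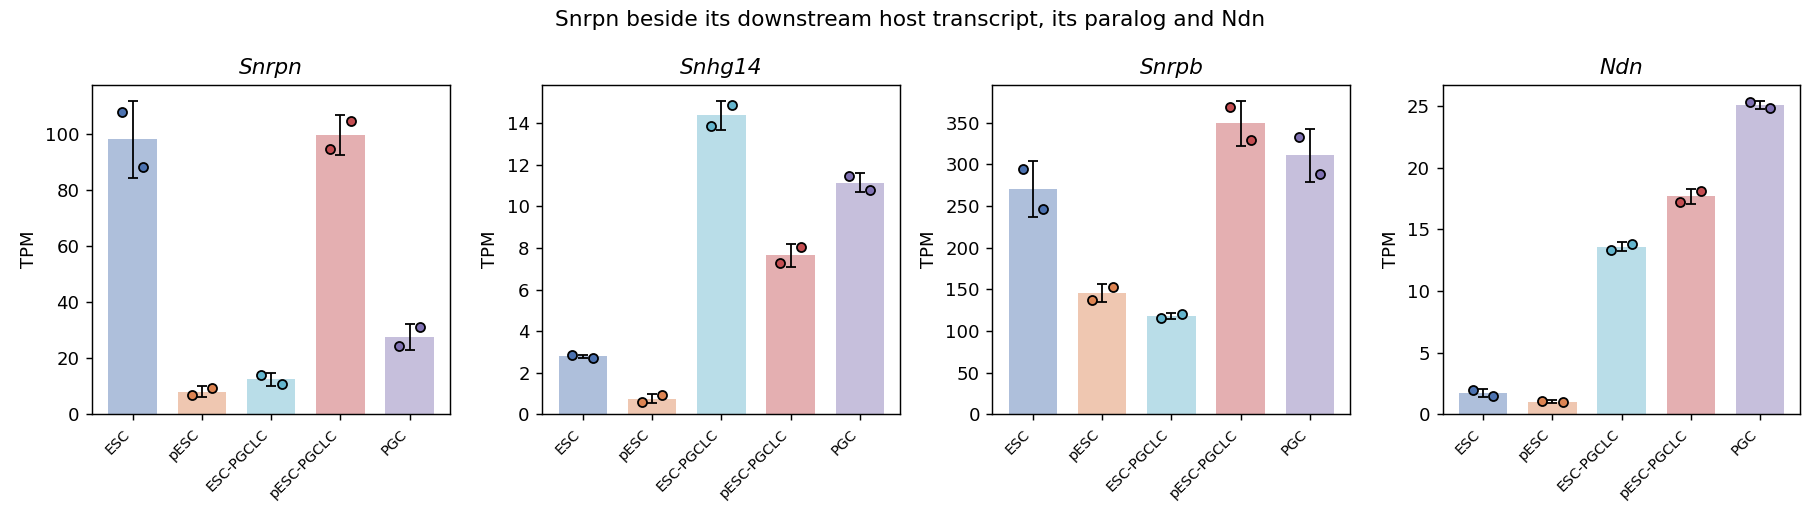
TPM of Snrpn, Snhg14, Snrpb and Ndn by group; bars are means of 2 libraries, points the libraries and error bars the SD. Snrpn and Snrpb are lower in ESC-PGCLCs than in ESCs and higher in pESC-PGCLCs than in pESCs, whereas Snhg14 and Ndn are higher in both kinds of PGC-like cells than in their stem cells.

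Proteins that work with SmN were compared next. Snrpb, the paralog that encodes SmB, was at 294 and 247 TPM in ESCs, 138 and 153 in pESCs, 116 and 120 in ESC-PGCLCs, 368 and 330 in pESC-PGCLCs and 333 and 289 in PGCs. It fell by 1.19 ± 0.15 from ESCs to ESC-PGCLCs (limma adjusted p = 0.000365) and rose by 1.26 ± 0.15 from pESCs to pESC-PGCLCs (adjusted p = 0.000325), a crossing in the same sense as that of Snrpn. The first of these calls was lost with quantile normalization (-0.85, adjusted p = 0.00126) and the second with centring (0.53, adjusted p = 0.0108), both for falling short of 2-fold. The ratio of Snrpn to Snrpb in TPM was 0.367 and 0.359 in ESCs, 0.0494 and 0.0619 in pESCs, 0.122 and 0.0909 in ESC-PGCLCs, 0.257 and 0.318 in pESC-PGCLCs and 0.0727 and 0.108 in PGCs. Relative to its paralog Snrpn was thus highest in ESCs and pESC-PGCLCs, and PGCs overlapped ESC-PGCLCs. How reads that match both paralogs were placed is not given in the sources used here. Of the 12 snRNP genes, 4 were called higher in pESC-PGCLCs than in ESC-PGCLCs, the 3 with most change being Snrpa (1.92), Snrpb (1.56) and Snrpd3 (1.21), and 1 lower (Snrnp70, -2.31), with a median of 0.24 beside 0.12 over all genes, and with centring the counts were 2 higher and 2 lower. From ESCs to ESC-PGCLCs, beside 29.8% of all genes called, Snrpa (-2.69) and Snrpb were called lower and Snrnp70 (2.33) higher. From pESCs to pESC-PGCLCs, beside 27.6% of all genes called, Snrpb and Snrpc (1.09) were called higher and Snrpg (-1.06) lower. In the latter comparison the call of Snrpc was lost with quantile normalization (0.43) and with centring (0.36) and that of Snrpg with quantile normalization (-0.90), and the counts became 1 higher and 1 lower with the former and 0 higher and 5 lower with centring. In PGCs against ESC-PGCLCs, Snrpa (2.09) and Snrpb (1.39, and 0.78 with centring, short of 2-fold) were called higher, and against pESC-PGCLCs Snrnp70 (1.48) was. In pESCs Snrpa was called lower than in ESCs (-1.19), a call lost under both other scalings.

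Among 11 partners of MAGEL2 and necdin, Trp53, the gene of p53, was called higher in pESC-PGCLCs than in ESC-PGCLCs (1.26 ± 0.30, limma adjusted p = 0.0203), and Trp53 (1.33) and E2f1 (1.05), the gene of a transcription factor that necdin binds, in PGCs than in ESC-PGCLCs. There were no calls between PGCs and pESC-PGCLCs, where 9 of the 11 had a higher and 2 a lower mean. All 3 of these calls were lost with quantile normalization and with centring, at 0.45 to 0.94. From ESCs to ESC-PGCLCs, beside 29.8% of all genes called, 2 were called higher and 1 lower, Washc4 (1.41) and Washc3 (1.33) of the WASH complex and Trp53 (-3.75). From pESCs to pESC-PGCLCs, beside 27.6% of all genes called, 5 were higher and 1 lower, with the most change in Washc3 (1.79), Trp53 (-1.55) and Trim27 (1.42). With quantile normalization 1 higher and 1 lower were left of these, and with centring the counts were 1 and 2, Trim27 falling short of 2-fold at 0.79 and 0.69. Among 8 partners of UBE3A, the proteasome subunit gene Psmd4 was the 1 call between the PGC-like cells (1.94 ± 0.14, adjusted p = 0.00017) and between PGCs and ESC-PGCLCs (1.27, and 0.67 with centring, short of 2-fold), and there was none between PGCs and pESC-PGCLCs. From ESCs to ESC-PGCLCs, again beside 29.8% of all genes, 3 were called higher and 2 lower, led by Psmd4 (-2.56), the ubiquitin-conjugating enzyme gene Ube2d2a (2.08) and Herc2 (1.44). From pESCs to pESC-PGCLCs, again beside 27.6% of all genes, 3 were higher, Ube2d2a (1.96), Ube2d1 (1.89) and Herc2 (1.60), of which Herc2 lost its call under both other scalings.

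Of 14 factors that keep or erase methylation at imprints, Trim28, whose protein binds ZFP57 at methylated imprinting centres, was called higher in pESC-PGCLCs than in ESC-PGCLCs (1.59 ± 0.19, limma adjusted p = 0.00107). In PGCs, Trim28 (1.82), the maintenance methyltransferase gene Dnmt1 (1.28) and Uhrf1 (1.18), whose protein recruits DNMT1, were called higher than in ESC-PGCLCs, and Uhrf1 (1.06) higher than in pESC-PGCLCs. With centring Trim28 kept both of its calls, and those of Dnmt1 and Uhrf1 fell under the 2-fold minimum. From ESCs to ESC-PGCLCs, beside 29.8% of all genes called, 4 of the 14 were called higher and 4 lower, with the most change in Zfp57 (-4.44), Dppa3 (3.95) and Dnmt3l (-3.17). From pESCs to pESC-PGCLCs, beside 27.6% of all genes called, 6 were higher and 4 lower, led by Dppa3 (2.59), Zfp57 (-2.36) and Dnmt1 (1.98). These counts became 4 higher and 6 lower with quantile normalization and 3 higher and 6 lower with centring, and the calls of Trim28 and Zfp445 were lost under both. In pESCs against ESCs, Dppa3 (1.10, adjusted p = 0.0435) was the 1 call in this list, and it was lost with quantile normalization (1.03, adjusted p = 0.0605).

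Across the 10 libraries the genes of the domain other than Magel2 fell into 2 patterns. On the log2(TPM + 1) scale Pearson's r was 0.95 between Snrpn and Snurf, which share reads, and 0.86 to 0.96 for each pair of Ndn, Mkrn3, Peg12 and Ube3a, while Snrpn had an r of -0.03 to 0.16 with these 4. Magel2, on few reads, had an r of 0.58 to 0.71 with these 4 and of 0.225 with Snrpn. These values describe 10 libraries in 5 groups that share a common scale, and the stem cell libraries used in the selection are among them. How many pairs of other genes reach such values was not counted. Outside the domain, of 14824 genes that averaged 1 TPM or more, the 3 most like Snrpn were Rasgrp2 (r = 0.98), 3110001I22Rik (0.96) and Gm20431 (0.96). Those most like Ndn were Epcam, Glrb and Ptpn9 (each 1.00 to 2 decimals), and those most like Ube3a were Nkap, Wwp1 and Smc5 (each 1.00 to 2 decimals). Rasgrp2 was at 3.73 and 3.38 TPM in ESCs, 1.22 and 1.61 in pESCs, 1.85 and 1.31 in ESC-PGCLCs, 3.17 and 3.17 in pESC-PGCLCs and 1.81 and 2.20 in PGCs, a narrower range than that of Snrpn. Epcam, a surface protein of epithelial and germ cells, ran from 22.2 to 33.2 TPM in stem cells and from 108 to 183 TPM in germ cells.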

How the data were processed

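RNA-seq of 10 mouse libraries, 2 in each of 5 groups taken from the sample labels, was used. By the study's methods the authors mapped reads to mm10 with Hisat2 and counted them per gene with Feature-counts, and compared groups with DESeq2. The submitters' processing notes also name Bowtie2, RSEM and R 3.4.2. The deposited values are TPM, counts divided by gene length and scaled to 1000000 a library by the authors. Library preparation is described differently in the labels and the methods, and strand handling is not given in the sources used here.

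TPM times GENCODE M21 exon length, divided by a constant per library, gave whole reads (within 0.01) for 94.5% to 94.8% of values above 0, and for all members. As no counts were used, limma 3.58.1 in R 4.3.3 was fitted to log2(TPM + 1) of 27259 genes, those that reached 0.1 TPM in 2 libraries or more, all 10 libraries in 1 fit with trended variances (5 residual and 2.81 prior degrees of freedom), and tested on simulated data. Fold changes on that scale understate those of low genes. All 7 members passed this filter. An exact permutation test of 2 against 2 cannot go below p = 0.333 and was not used. Intervals cover counting error only. Alternatives were a pseudocount of 0.1, filters of 1 TPM or none, only the compared groups, quantile normalization, median centring, replicate as a block, voom on recovered reads and leaving out each library. The members and lists were chosen with earlier results of these data known. All members are named, and of each list every gene that passed, or the 3 with the largest change; calls of Gm38393, which shares exons with Snrpn, are not reported in comparisons that use stem cells. GC content and length were compared, and the motifs searched, after the data were seen. Promoters came from RefSeq (GRCm38.p6) and Snurf from GENCODE M21. Tables and figures used Python 3.11.15, pandas 2.3.3, numpy 2.4.6, scipy 1.17.1 and matplotlib 3.10.9.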

Additional observations from a re-analysis of the deposited data

Results flagged for a closer look

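Snrpn and Snurf moved in opposite directions in the 2 inductions: every ESC-PGCLC library lay below every ESC library, and every pESC-PGCLC library above every pESC library. The log2 fold change from pESCs to pESC-PGCLCs exceeded that from ESCs to ESC-PGCLCs by 6.36 for Snrpn and by 6.55 for Snurf, which shares its reads with Snrpn. This difference was not tested, since the genes were selected on their stem cell levels. Snrpb crossed in the same sense, with a difference of 2.44 (limma interaction, adjusted p = 0.00043). Of the 12 snRNP genes, Snrpa (3.11), Snrpc (1.85) and Snrpd3 (1.45) also differed in that sense, and Snrnp70 (-2.82) and Snrpe (-1.08) in the opposite one, each with an adjusted p of at most 0.0371. The share of all genes that pass this interaction test was not taken, so no excess among snRNP genes can be read from these values. All differences between the inductions were taken without quantile normalization or centring, and their size depends on the scaling.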

How the results depend on the processing

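Snrpn and Snurf were called higher in pESC-PGCLCs than in ESC-PGCLCs under all 12 alternatives, with 2.50 to 3.08 for Snrpn and 2.52 to 3.39 for Snurf. Of 249 values of single members under alternatives, 215 kept direction and call, 12 lost the call, all of Snrpn and Snurf in comparisons with PGCs, and 22 changed sign, none of them called. Causes were not tested beyond what each alternative removes.

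With quantile normalization the changed signs were Ndn -0.029 between the PGC-like cells, Snurf -0.346, Mkrn3 -0.15 and Ube3a -0.229 in PGCs against ESC-PGCLCs, and Peg12 -0.023 in PGCs against pESC-PGCLCs. With median centring they were Ndn -0.053, Magel2 -0.317 and Peg12 -0.093 between the PGC-like cells, Snurf -0.393, Magel2 -0.402, Mkrn3 -0.157, Peg12 -0.035 and Ube3a -0.282 in PGCs against ESC-PGCLCs, and Magel2 -0.085 in PGCs against pESC-PGCLCs. Members called in PGCs against ESC-PGCLCs numbered 0 under both scalings, and genes called numbered 1906 with quantile normalization and 6140 with a pseudocount of 0.1, against 3772. In PGCs against pESC-PGCLCs, fitting those groups alone left 0 members and 0 of all genes called against 2 and 1000, and voom on recovered reads called 1956.

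In pESCs against ESCs, 213 genes were called, and 402 with a filter of 1 TPM, 132 without a filter, 0 with those groups alone, 122 with quantile normalization, 459 with voom and 78 with the replicate block. Voom called 12295 genes from ESCs to ESC-PGCLCs and 11317 from pESCs to pESC-PGCLCs, against 8122 and 7535. The split of calls moved with scaling: 2812 higher and 839 lower between the PGC-like cells became 1460 and 1891 with centring, 3260 and 512 in PGCs against ESC-PGCLCs became 712 and 2003, 564 and 436 against pESC-PGCLCs became 293 and 821, 45 and 168 in pESCs became 161 and 30, and 5681 and 1854 from pESCs to pESC-PGCLCs became 2280 and 5010.

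Without 1 library at a time, PGCs against ESC-PGCLCs had 0 to 1 members called and PGCs against pESC-PGCLCs 0 to 2, with 15 to 2015 genes called in the latter and 2 to 962 in pESCs against ESCs; the lone sample of a group is then assumed to vary like the other groups. Values that changed sign ran from -0.055 to 0.24 for Magel2 and from -0.037 to 0.671 for Peg12 between the PGC-like cells, from -0.613 to 1.038 for Snurf in PGCs against ESC-PGCLCs, and from -0.032 to 0.255 for Magel2 and -0.113 to 0.623 for Peg12 in PGCs against pESC-PGCLCs.

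No label says what a replicate number stands for. Deviations of same-numbered libraries correlated at -0.0936 to 0.347 over pairs of groups, above 0.1 in the 3 pairs among ESCs, pESCs and PGCs and not in the other 7, so the numbers were not taken to pair the samples. The replicate block changed no call of a member. Depth limits Magel2, with 1 to 19 reads a group, and Snurf outside ESCs and pESC-PGCLCs, with 51 to 124.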
